A study of Mus musculus with 10 samples.

Results

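The growth hormone and STAT genes described here were 10 of the 24421 genes in the count table: Ghr, Jak2, Stat3, Stat5a, Stat5b, Socs2, Socs3, Cish, Igf1 and Igfals. They were taken by gene symbol for their known place in the pathway, with earlier results of these data known. All 10 passed the filter on low counts. Hepatic mRNA was sequenced from 10 male wild-type C57BL/6 mice (C57BL/6J in the study's methods), 21 weeks old and fed ad libitum, with 1 poly(A) RNA library per mouse. Controls (Chow, n = 5) received standard chow alone. The TM5614 mice (n = 5) received it with TM5614, an oral inhibitor of plasminogen activator inhibitor-1 (PAI-1), added at 20 mg/kg/day over 10 days. The design holds 1 strain, 1 sex, 1 dose and 1 time, and the labels give no time of day. Whole liver was used, so fewer cells of a type and less RNA per cell cannot be told apart.

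Growth hormone from the pituitary binds its receptor on hepatocytes and activates the kinase JAK2, which phosphorylates the transcription factor STAT5. STAT5 then switches on Igf1, the endocrine growth factor made mostly by liver, together with Igfals, the subunit that holds circulating IGF-1 in a long-lived complex, and with the genes of the SOCS family, whose proteins shut the same signal off. STAT3 serves interleukin-6 and leptin receptors through the same kinases and drives acute-phase genes. The comparison asked whether the mRNA of any of these steps differed between mice given the PAI-1 inhibitor and mice on chow.

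STAT factors bind palindromes of the form TTCNNNGAA, and the promoter windows of the members (250 bases before to 50 bases after a start site, RefSeq, GRCm38.p6) were searched for these letters, which read the same on either strand. Windows were at hand for 9 of the members, with Socs2 the exception. Of these 9 genes, 3 held a match in at least 1 window, namely Cish, Socs3 and Igfals. Over all 27025 genes with a window the share was 9.55%. The matching stretches are shown because they include both the member with the clearest group difference, Igfals, and the feedback gene that varied most between mice, Cish. Each is 30 bases long, written 5′ to 3′ on the strand of the gene, with the matches in capitals. They lie at chr9:107296654-107296683 (plus strand, Cish), chr11:117969501-117969530 (minus strand, Socs3), and chr17:24877598-24877627 and chr17:24878163-24878192 (plus strand, Igfals, at separate start sites).
Cish: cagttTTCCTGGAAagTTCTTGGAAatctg
Socs3: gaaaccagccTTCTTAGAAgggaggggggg
Igfals, upstream window: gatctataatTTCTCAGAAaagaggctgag
Igfals, downstream window: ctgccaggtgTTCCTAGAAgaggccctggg
The Cish stretch holds 2 matches side by side. No match lay in the windows of Ghr, Jak2, Stat3, Stat5a, Stat5b or Igf1, which says only that these letters are absent from these 300 bases.

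Totals per library ranged from 6398335 to 10874955 counts. Among the cell type markers, those of hepatocytes were the most abundant in every library. The 10 genes summed to 137075 to 147728 CPM (counts scaled to library size) in the Chow livers and 120982 to 139278 CPM in the TM5614 livers. In the Chow group Alb had a mean of 87718 CPM, while Ass1 had 2.56 CPM. Whether the counting missed reads of Ass1 was not tested. A pair of libraries stood apart from the rest of their groups, and results that rest on them are given with and without them. In Chow replicate 2, GC content and gene length accounted for 46.0% of the deviation of genes from their median over libraries. The share was at most 11.5% in any other library. In TM5614 replicate 2, 12 skeletal muscle markers held 23297 counts, against 3 to 498 in the other 9 libraries. The members are not muscle markers, but they span a wide range of GC content, from 38.0% in Igf1 and 40.9% in Ghr to 58.7% in Socs3 and 58.9% in Igfals, against a median of 49.5% over the genes tested.

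On the deposited FPKM scale, which takes gene length into account, the receptor and the endocrine products were far above the signalling intermediates. In the Chow group Ghr had a mean of 115.7 ± 27.3 FPKM and Igf1 a mean of 108.0 ± 12.5 FPKM (SD, n = 5), and the ranges of these genes overlapped. Igfals came next at 48.3 ± 14.0 FPKM and Stat3 at 26.2 ± 3.63 FPKM, each clear of its neighbours. Below them Stat5b, at 8.45 ± 1.57 FPKM, overlapped Socs2, at 7.25 ± 3.54 FPKM. Jak2, Cish, Socs3 and Stat5a followed between 3.30 and 2.26 FPKM, with ranges that overlapped from each gene to the next. Stat5b thus stood above Stat5a in level, although reads of these similar paralogs may have been split between them in counting. In the TM5614 group the top of the order was the same, except that Igfals, at 27.2 ± 4.86 FPKM, now overlapped Stat3, at 23.1 ± 2.45 FPKM. At the bottom, Cish, at 1.51 ± 1.11 FPKM, came last.

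**Figure D1:**
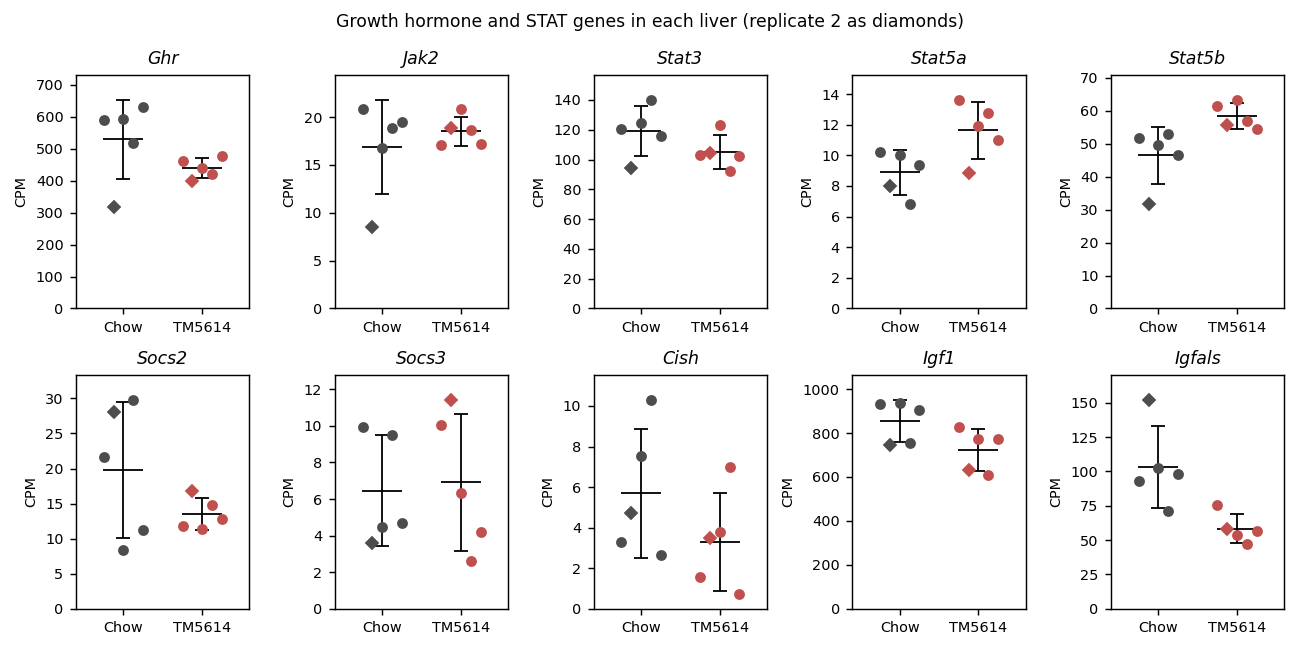
CPM of the 10 members in each of the 10 livers (vertical axis from 0, separate scale per gene), Chow in grey and TM5614 in red, with the group mean and SD (n = 5) in black and replicate 2 of each group as a diamond. Igfals is lower in the TM5614 group, and Stat5b is the member whose groups do not overlap. Socs3 and Cish spread widely between mice of the same group, and Socs2 spreads widely among the Chow mice.

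Between the groups, Igfals was the member that fell. Its mRNA was 43.6% lower in mice given TM5614. The mRNA of Ghr and Igf1 was lower by 16.8% and 15.4% and that of Stat5a and Stat5b higher by 30.5% and 25.7%, without passing the test over all genes. In all, 1 of the 10 members passed, against 4.5% of the 11092 genes tested (edgeR quasi-likelihood test, adjusted p under 0.05 by Benjamini-Hochberg). No member passed in the upward direction, where the background was 1.73%, although 2 members had an unadjusted p under 0.05 in that direction, as had 8.69% of all genes, and 1 passed in the downward direction, where it was 2.77%. In either direction 3 members had an unadjusted p under 0.05, against 20.4% of all genes. DESeq2 likewise called 1 member, Igfals, and limma-voom with sample quality weights called 2, Igfals and Ghr, each of them lower. The median log2 fold change of the members was -0.21, beside 0.01 over all genes tested.

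**Figure D2:**
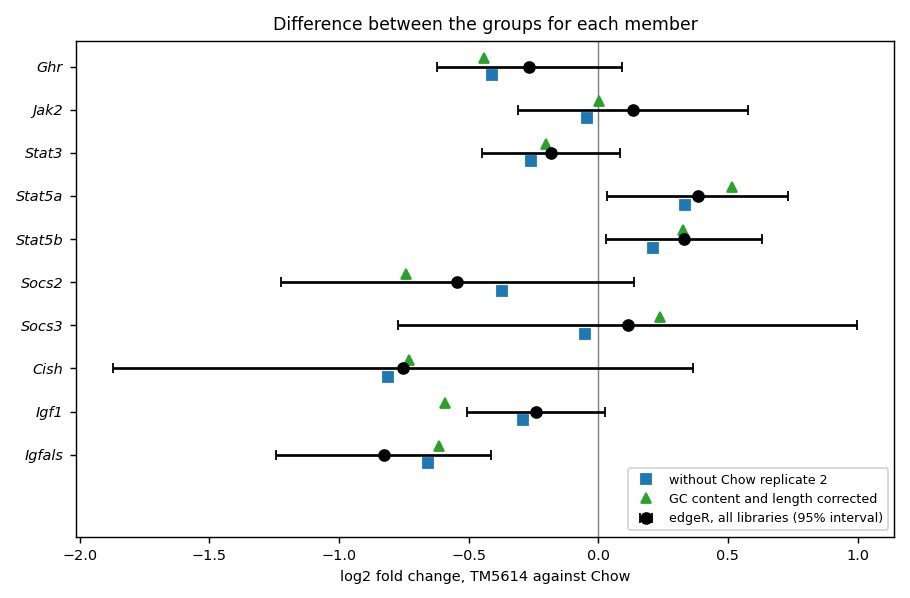
Log2 fold change of each member, TM5614 against Chow (horizontal axis), with the 95% interval from edgeR on all 10 libraries (black), the value without Chow replicate 2 (blue squares) and the value corrected for GC content and length (green triangles). The interval of Igfals, -1.24 to -0.41, lies farthest from 0, and those of Cish and Socs3 are the widest.

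At the head of the pathway stands Ghr, the growth hormone receptor (chr15:3317760-3583492, minus strand). The Chow livers had 588, 318, 592, 517 and 629 CPM of Ghr in replicates 1 to 5, and the TM5614 livers 463, 399, 438, 422 and 477 CPM. All 5 TM5614 values lay below 4 of the Chow values, and only Chow replicate 2 lay below them. The group means were 529 ± 125 CPM and 440.0 ± 31.2 CPM (SD, n = 5), with a log2 fold change of -0.27 (SE 0.16, adjusted p = 0.379 in edgeR). Chow replicate 2, the library with the GC trend, decided this outcome: without it the log2 fold change was -0.41 with an adjusted p of 0.0112, and with a correction for GC content and length of all 10 libraries it was -0.44 with an adjusted p of 0.00810. Over all 17 alternatives the value ran from -0.44 to -0.20 and passed the threshold in 4, with adjusted p from 0.00810 to 0.539.

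Jak2, the kinase bound to the receptor (chr19:29251828-29313080, plus strand), ranged from 8.49 to 20.9 CPM in the Chow livers and from 17.1 to 20.9 CPM in the TM5614 livers. The lowest value was again that of Chow replicate 2. With a log2 fold change of 0.13 (SE 0.20, adjusted p = 0.729), its 95% interval ran from -0.31 to 0.58, and without Chow replicate 2 the estimate was -0.04.

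The STAT genes among the members lie next to each other on chromosome 11. Stat5b (chr11:100780731-100850724, minus strand) and Stat5a (chr11:100859351-100885169, plus strand) are followed by Stat3 (chr11:100885098-100939540, minus strand), whose end overlaps that of Stat5a by 72 bases. Since it is not stated whether counting used strand, reads in the overlap cannot be assigned with certainty.

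Stat5b encodes the main STAT5 of the male liver response. Its values were 51.8, 31.6, 49.5, 53.1 and 46.7 CPM in the Chow livers and 61.6, 55.8, 63.4, 56.8 and 54.6 CPM in the TM5614 livers. Every TM5614 value exceeded every Chow value, which held for 1 of the 10 members and for 4.07% of all genes tested. Groups that did not overlap in either direction were seen for the same 1 member and for 8.93% of all genes. The log2 fold change was 0.33 (SE 0.14), with an unadjusted p of 0.0345 and an adjusted p of 0.208 in edgeR. Without Chow replicate 2, again the lowest library, it was 0.21.

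Stat5a, the paralog that is more prominent in the mammary gland, had 10.2, 8.01, 10.0, 6.81 and 9.38 CPM in the Chow livers and 13.6, 8.82, 11.9, 12.8 and 10.98 CPM in the TM5614 livers. Of the TM5614 values, 4 lay above all Chow values, and that of replicate 2 lay among them. Its log2 fold change of 0.38 (SE 0.16, adjusted p = 0.205) was positive in all 17 alternatives, between 0.30 and 0.52, and passed the threshold in none of them.

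Stat3, the STAT of the interleukin-6 and leptin receptors, ranged from 94.2 to 140.2 CPM in the Chow group and from 92.0 to 123 CPM in the TM5614 group. The groups overlapped over most of their range. Its log2 fold change was -0.18 (SE 0.12, adjusted p = 0.419), with a 95% interval from -0.45 to 0.09.

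The feedback inhibitors were the most variable members in the Chow group, and Cish and Socs3 were in the TM5614 group. The highest value of Socs2 was 3.57 times the lowest in the Chow livers and 1.475 times in the TM5614 livers. Socs2, the main brake on growth hormone action in liver (chr10:95385362-95417180, minus strand), had 21.6, 28.1, 8.35, 29.8 and 11.2 CPM in the Chow livers and 11.8, 16.7, 11.4, 14.9 and 12.8 CPM in the TM5614 livers. Chow values fell on either side of the TM5614 range, with 3 above it and 2 below it. The log2 fold change of -0.54 (SE 0.31, adjusted p = 0.349) did not pass, and it was -0.11 at its smallest among the 17 alternatives and -0.74 at its largest.

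Cish (chr9:107296026-107302784, plus strand), an early STAT5 target whose protein blocks STAT5 docking, had 3.27, 4.73, 7.52, 10.3 and 2.67 CPM in the Chow livers and 1.58, 3.50, 3.78, 6.97 and 0.718 CPM in the TM5614 livers. The groups overlapped, and replicate 4 was the highest library and replicate 5 the lowest in each. These values rest on 7 to 72 counts per library. The log2 fold change was -0.75 (SE 0.51, adjusted p = 0.423), and its 95% interval of -1.87 to 0.36 leaves room for a large fall as well as for a modest rise.

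Socs3, the inhibitor induced by STAT3 (chr11:117966079-117970047, minus strand), ran from 3.57 to 9.95 CPM in the Chow livers and from 2.63 to 11.4 CPM in the TM5614 livers. Its counts were also low, between 23 and 88 per library. A log2 fold change of 0.11 (SE 0.41, adjusted p = 0.894) carried no stable sign, since it was -0.05 without Chow replicate 2 and -0.15 without TM5614 replicate 2.

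Igf1 (chr10:87858265-87937042, plus strand), the endocrine product of the pathway, was among the most abundant members. The Chow livers had 932, 745, 936, 753 and 904 CPM and the TM5614 livers 827, 632, 774, 609.7 and 771 CPM. Chow replicates 2 and 4 lay within the TM5614 range, while Chow replicates 1, 3 and 5 lay above it. With means of 854 ± 96.8 CPM and 723 ± 96.0 CPM (SD, n = 5), the log2 fold change was -0.24 (SE 0.12, adjusted p = 0.294), and the 95% interval ran from -0.51 to 0.03. Igf1 had the lowest GC content of the members, and after the correction for GC content and length its log2 fold change was -0.59 with an adjusted p of 0.0866.

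Igfals (chr17:24865997-24882010, plus strand) encodes the acid-labile subunit, which joins IGF-1 and its binding protein in the circulation. The Chow livers had 92.9, 152, 102, 70.8 and 98.3 CPM and the TM5614 livers 75.4, 58.0, 53.7, 47.4 and 56.9 CPM. All TM5614 values lay below all Chow values but for TM5614 replicate 1, which exceeded Chow replicate 4. The means were 103 ± 29.8 CPM and 58.3 ± 10.4 CPM (SD, n = 5), and Igfals fell by 0.83 on the log2 scale (SE 0.19, adjusted p = 0.0301 in edgeR).

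The estimate for Igfals was negative in all 17 alternatives, from -0.94 to -0.61. Chow replicate 2 had its highest value, and without that library the log2 fold change was -0.66 with an adjusted p of 0.0109. After the correction for GC content and length it was -0.61 with an adjusted p of 0.0132. The call was close to the threshold, however, and was lost when Chow replicate 3 or 5, or TM5614 replicate 2, 3, 4 or 5, was left out, with adjusted p from 0.0506 to 0.0955 and a log2 fold change between -0.84 and -0.76.

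Other genes around the pathway were examined in lists of known function, chosen with earlier results of these data known. The counts for these lists therefore describe them and are no independent test. Among 15 tested cytokine receptors that signal through JAK kinases, 1 rose and none fell, against 1.73% and 2.77% of all genes. The median log2 fold change was 0.04. The gene that rose was Lepr, the leptin receptor, with 0.965 to 10.6 CPM in the Chow livers and 17.9 to 58.6 CPM in the TM5614 livers, a log2 fold change of 2.75 (SE 0.51, adjusted p = 0.00915). None of 6 other JAK and STAT genes passed in edgeR, DESeq2 or limma-voom, although 2 had an unadjusted p under 0.05. That share was 20.4% over all genes. The most abundant of the 6, Jak1 and Stat6, had log2 fold changes of 0.20 (SE 0.17) and 0.06 (SE 0.10).

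Of 19 other inhibitors and adaptors, with a median of 0.00, 1 rose and 1 fell, against 1.73% and 2.77% of all genes. Sh2b3, an adaptor that restrains JAK2, had 18.6 to 21.0 CPM in the Chow livers and 10.9 to 16.1 CPM in the TM5614 livers, and fell by 0.63 on the log2 scale (SE 0.13, adjusted p = 0.0151). Without TM5614 replicate 4 its adjusted p was 0.0519. Irs1, a docking protein of the insulin and IGF-1 receptors, had 19.6 to 35.8 CPM in the Chow livers and 39.3 to 52.1 CPM in the TM5614 livers, a log2 fold change of 0.62 (SE 0.16, adjusted p = 0.0485). Its call was lost, with adjusted p up to 0.136, without Chow replicate 1, 3 or 4 or any 1 of the TM5614 libraries, and it was also lost with no filter on low counts (adjusted p = 0.0720).

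Around Igf1 and Igfals, none of 10 other genes of the IGF system passed in edgeR, and DESeq2 and limma-voom called 1 each. Of the 10, 2 had an unadjusted p under 0.05, against 20.4% of all genes. Igfbp4, an abundant IGF binding protein, had means of 2136 ± 345 CPM and 1613 ± 143 CPM (SD, n = 5) and a log2 fold change of -0.40 (SE 0.12, adjusted p = 0.0935). Igfbp2, another, had a log2 fold change of 0.32 (SE 0.26, adjusted p = 0.500). The median of these 10 genes was 0.25, and the difference between Igfals and the list was not tested.

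**Figure D3:**
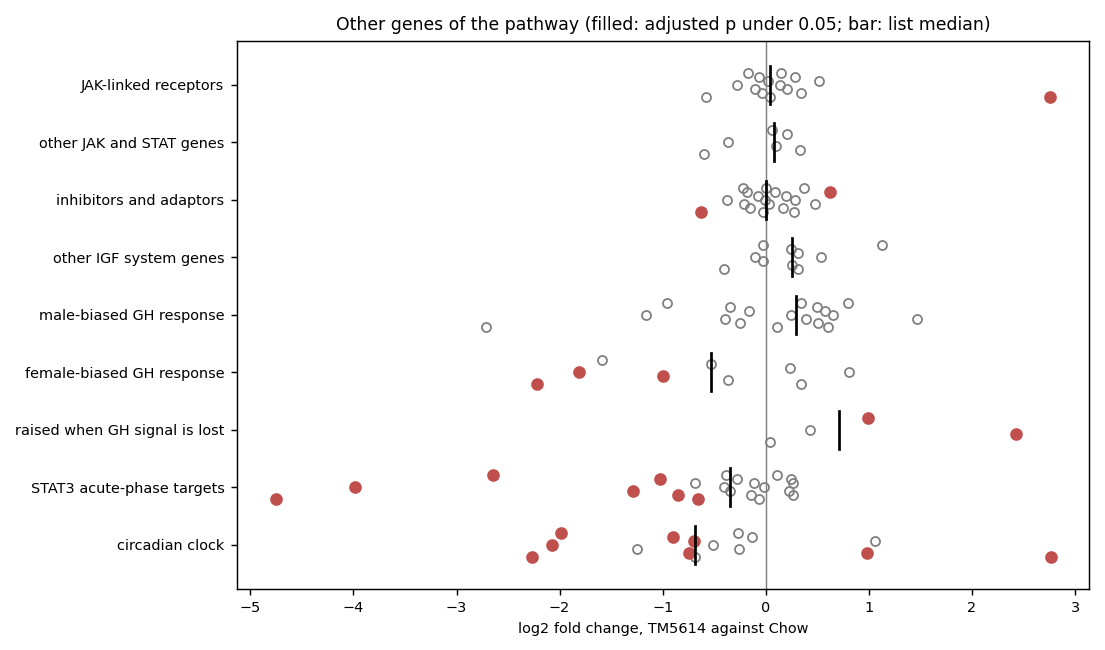
Log2 fold change, TM5614 against Chow (horizontal axis), of each tested gene of 9 lists around the pathway, with genes of adjusted p under 0.05 in edgeR filled in red and the list median as a black bar. The acute-phase and female-biased lists hold calls only below 0, the list of genes raised when growth hormone signalling is lost holds calls only above 0, and the clock list holds both.

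Growth hormone is released in pulses in males and more evenly in females, and many liver genes follow that pattern. None of 18 tested male-biased response genes passed in edgeR, while 8 had an unadjusted p under 0.05, DESeq2 called 1 and limma-voom called 3. The unadjusted share over all genes was 20.4%. Without both replicate 2 libraries, which stood apart, edgeR called 5 of these genes, all higher, against 11.1% of all genes. By that count, named after its values were seen, they were Elovl3, Mup3, Mup7, Mup21 and Slco1a1, with log2 fold changes from 0.70 to 1.88. With Chow replicate 2 alone left out the count was 1, and with Chow replicate 4 alone left out it was 2. Over all 10 libraries the median log2 fold change of the list was 0.29, against 0.01 over all genes. Of the 18 estimates, 11 were above 0 and 7 below. Among the 8 genes with an unadjusted p under 0.05, Hsd3b5, C8b and Bcl6 were lower. Hsd3b5 had the largest change of the list, -2.71 (SE 0.73, adjusted p = 0.0587 in edgeR). The most abundant, Mup3 and Mup20, are major urinary protein genes from a family of near-identical copies, so their reads are uncertain, and they had log2 fold changes of 0.60 (SE 0.23, adjusted p = 0.171) and 0.39 (SE 0.16, adjusted p = 0.185).

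Of 20 listed female-biased response genes, 9 had enough counts to be tested. Of these, 3 fell and none rose, with a median of -0.54. Over all genes tested, 2.77% fell and 1.73% rose. An unadjusted p under 0.05 was seen for 5 of the 9, against 20.4% of all genes. Among these 5, Cyp17a1 was higher, with a log2 fold change of 0.81 (SE 0.32, adjusted p = 0.185 in edgeR). Without Chow replicate 2, or without both replicate 2 libraries, 5 were called, and in the latter case all 5 were lower. Cux2, a transcription factor of the female liver, had 14.1 to 25.0 CPM in the Chow livers and 2.51 to 10.7 CPM in the TM5614 livers, and fell by 1.82 on the log2 scale (SE 0.32, adjusted p = 0.00749). Cyp2a4, a steroid hydroxylase with a near-identical paralog, fell by 2.22 (SE 0.42, adjusted p = 0.0111) on 3 to 28 counts per library. Acot3, an acyl-CoA thioesterase, fell by 1.00 (SE 0.24, adjusted p = 0.0349), a call lost without Chow replicate 1, 3 or 5 or any 1 of the TM5614 libraries, with adjusted p up to 0.107. It was also lost with a replicate block (adjusted p = 0.0543).

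Among 4 tested genes known to be raised in livers that lost growth hormone signalling, 2 rose and none fell, with a median of 0.71. The shares over all genes were 1.73% and 2.77%. Both genes that rose belong to the coat of lipid droplets. Cidec had 3.49 to 7.08 CPM in the Chow livers and 18.5 to 38.5 CPM in the TM5614 livers, a log2 fold change of 2.43 (SE 0.24, adjusted p = 0.000340). Plin4 rose by 0.99 on the log2 scale (SE 0.23, adjusted p = 0.0293), a call lost without Chow replicate 1 or 4 or TM5614 replicate 1, 2, 4 or 5, with adjusted p up to 0.0728. Cd36 and Pparg did not pass, with log2 fold changes of 0.43 (SE 0.21, adjusted p = 0.276 in edgeR) and 0.04 (SE 0.16, adjusted p = 0.897). Cidec is also known to respond to feeding and lipid load.

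Downstream of STAT3, 7 of 21 tested acute-phase genes fell and none rose, with a median of -0.34, while Stat3 and Socs3 themselves did not pass. Over all genes tested, 2.77% fell. Of the 21 estimates, 16 were below 0 and 5 above, among the latter Crp at 0.25 (SE 0.13). The most abundant in the Chow group, Fgb and Fga, did not pass, with log2 fold changes of -0.15 (SE 0.11) and -0.06 (SE 0.11). Saa2 and Saa1, serum amyloid A genes of similar sequence, had 13.1 to 539 CPM and 43.7 to 866 CPM in the Chow livers. In the TM5614 livers they had 3.77 to 8.69 CPM and 11.1 to 27.9 CPM, with log2 fold changes of -4.75 (SE 0.92, adjusted p = 0.0124) and -3.99 (SE 0.72, adjusted p = 0.00825). Chow replicate 4 was the highest library for each, and without it the log2 fold changes were -3.28 for Saa2 and -3.06 for Saa1, with adjusted p of 0.00835 and 0.00966. Orm2, an orosomucoid, fell by 2.65 (SE 0.25, adjusted p = 0.000340). Lcn2, lipocalin-2, fell by 1.29 (SE 0.32, adjusted p = 0.0429), a call lost without Chow replicate 3, 4 or 5 or TM5614 replicate 1, 3, 4 or 5, with adjusted p up to 0.114, and also with no filter on low counts (adjusted p = 0.0509).

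Genes of the circadian clock moved in the same comparison, with a median of -0.69. Of 15 tested, 2 were higher and 6 lower, against 1.73% and 2.77% of all genes. Arntl and Per3 had log2 fold changes of 2.76 (SE 0.48, adjusted p = 0.00659) and -2.27 (SE 0.32, adjusted p = 0.00195), and Ciart and Dbp fell by 2.08 and 1.99. The time of day at which livers were taken is not in the labels, and the part of the clock in the values of Igfals, Lepr or the lists above was not tested. Among cell type markers, none of 10 Kupffer cell genes passed in edgeR, DESeq2 or limma-voom, and none had an unadjusted p under 0.05. All 10 estimates were below 0, with a median of -0.43. The summed Kupffer cell markers ranged from 83.4 to 264 CPM in the Chow livers and from 83.2 to 178 CPM in the TM5614 livers, and their part in the acute-phase values was not tested. Of 10 hepatocyte markers none passed in edgeR, and DESeq2 and limma-voom called 1 each. Of the 10, 3 had an unadjusted p under 0.05, against 20.4% of all genes. The 8 endothelial, 8 stellate and 3 cholangiocyte markers tested held no edgeR or DESeq2 call. An unadjusted p under 0.05 was seen for 1 endothelial and 1 stellate marker, and 1 stellate marker passed in limma-voom. Of the adipose markers, 1 had enough counts to be tested and none passed in edgeR, DESeq2 or limma-voom, nor had an unadjusted p under 0.05. None of the lymphocyte, skeletal muscle or pancreas markers had enough counts in enough libraries to be tested.

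Members were also compared across mice, on log2 CPM with the group mean taken out, for 6 pairs of known relation. Cish and Socs2, both STAT5 targets, showed r = 0.20 and rho = 0.22 over the 10 libraries (exact permutation within groups, p = 0.534 and 0.531, adjusted over the 6 pairs p = 0.620 and 0.531). Igf1 and Igfals gave r = 0.19 and rho = 0.24 (exact permutation, p = 0.620 and 0.524, adjusted p = 0.620 and 0.531), and without the 2 libraries farthest from the median of Igf1 r was 0.63. Stat3 and Socs3 gave r = 0.56 and rho = 0.58 (exact permutation, p = 0.106 and 0.0890, adjusted p = 0.213 and 0.178), and r fell to 0.37 without 2 libraries. For Stat5a and Stat5b r was 0.24 and rho 0.32 (exact permutation, p = 0.597 and 0.369, adjusted p = 0.620 and 0.531), and r was 0.80 without Chow replicate 4 and TM5614 replicate 2. Chow replicate 2 lay alone at the low end for Stat5b. Within the other 9 libraries r was 0.13, and without both replicate 2 libraries it was -0.12. None of these 4 relations passed.

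Cish and Bcl6, a repressor of transcription that STAT5 itself shuts off, ran in opposite directions across mice. Bcl6 had 71.0, 62.3, 10.2, 13.5 and 57.1 CPM in the Chow livers and 24.8, 23.7, 11.5, 7.31 and 28.4 CPM in the TM5614 livers, a log2 fold change of -1.17 (SE 0.53, adjusted p = 0.243). Replicates 3 and 4 were the lowest in each group, and these 4 libraries were also the highest for Cish in their group. The correlation was r = -0.79 and rho = -0.76 (exact permutation, p = 0.00701 and 0.00514, adjusted p = 0.0210 and 0.0308), and r was -0.81 without the 2 libraries farthest from the median of Cish. After the correction for GC content and length r was -0.79 (exact permutation, adjusted p = 0.0433), and without both replicate 2 libraries it was -0.88 (exact permutation, adjusted p = 0.0573). Bcl6 lay in a set of 4 and a set of 6 libraries with a gap of 37.4% of its range between them. Within the set of 6, r was -0.20, so the value rests largely on the contrast of these sets. With a replicate block the log2 fold change of Bcl6 was -0.97 (adjusted p = 0.0430 in edgeR). The labels, however, do not say that mice of the same number were handled together.

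For Ghr and Igf1 r was 0.65 and rho 0.65 (exact permutation, p = 0.00438 and 0.0281, adjusted p = 0.0210 and 0.0844), and r was 0.77 without the 2 libraries farthest from the median of Ghr. The relation did not hold after the correction for GC content and length, where r was 0.02 (exact permutation, adjusted p = 0.960), and without both replicate 2 libraries r was 0.77 (exact permutation, adjusted p = 0.0799). Igf1 also lay in sets of 4 and 6 libraries, with a gap of 60.0% of its range. Within the set of 6, r of Ghr and Igf1 was -0.31, so the positive value rests on the contrast of these sets.

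**Figure D4:**
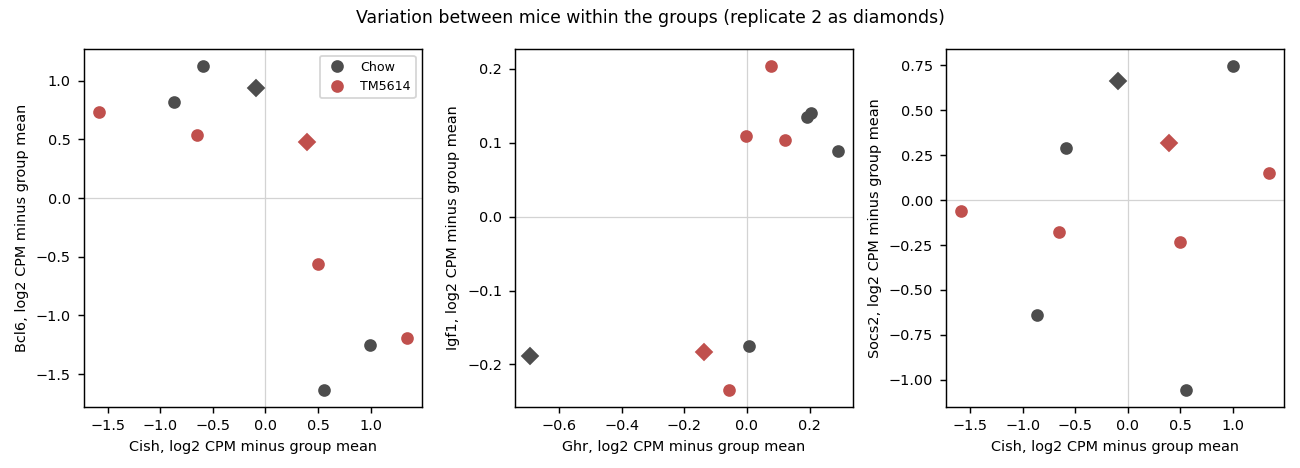
Each point is 1 liver, with log2 CPM minus its group mean for Cish against Bcl6 (left), Ghr against Igf1 (middle) and Cish against Socs2 (right), Chow in grey, TM5614 in red and replicate 2 as diamonds. Bcl6 and Igf1 each fall into a set of 4 and a set of 6 livers, and Chow replicate 2 lies far to the left for Ghr.

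The genes whose pattern across the 10 libraries, with group means removed, was most like that of Cish were sought among 8598 genes with a mean of at least 50 counts. They were Egr1 (Pearson r = 0.94), Ears2 (0.90), Cyr61 (0.89), Gadd45a (0.88) and Taf5l (0.87). These are the highest of 8598 values over 10 libraries, so they were picked for their size. Whether unrelated genes would reach such values was not tested, here or for Igf1 below. Egr1, an immediate-early transcription factor, had 43.3, 58.0, 106, 219 and 61.2 CPM in the Chow livers and 36.2, 92.0, 99.2, 139.7 and 27.9 CPM in the TM5614 livers, so that, like Cish, it was highest in replicate 4 of each group. That likeness follows from how Egr1 was picked, and Cish itself rests on 7 to 72 counts per library. After the correction for GC content and length these r values were 0.92, 0.83, 0.90, 0.85 and 0.78. For Igf1, the most alike of 8597 genes were Rgn (r = 0.95), Pm20d1 (0.92), Srgap3 (0.91), Gm20319 (0.90) and Ndst1 (0.90), but after that correction r was 0.25, 0.74, 0.12, -0.45 and -0.35. Of the genes most like Igf1, Pm20d1 kept the highest r after the correction.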

How the data were processed

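Reads were single-end and came from poly(A) RNA. As the study's methods state, they were aligned with STAR to mm10, and STAR and DESeq2 were run through an Illumina application. The methods do not state how reads were counted. HOMER is listed without a role. The gene annotation, versions and use of strand are not given in the sources used here. The authors deposited raw counts per gene symbol, which were tested here. The authors also deposited FPKM values, scaled between libraries as by size factors, which were used only for levels between genes. Deposited regularised log values, and a table of the authors' own fold changes and p-values, were not used.

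The members and all gene lists were chosen with earlier results of these data known. Columns were matched by mouse number. No pair of libraries within a group agreed within sampling noise (lowest chi-square per degree of freedom 7.50). In R 4.3.3, genes were kept with filterByExpr (11092), libraries scaled with TMM, and groups compared with the two-sided edgeR 4.0.16 quasi-likelihood test without a block, adjusted by Benjamini-Hochberg (threshold 0.05). The SE is the size of the log2 fold change divided by the root of its F statistic. Log2 CPM had a prior count of 2. Alternatives were DESeq2 1.42.0, limma-voom (limma 3.58.1) with sample quality weights, RLE factors, no filter, a replicate block, a GC content and length correction (spline of 5 degrees of freedom each, GENCODE M21 transcripts, 96.7% of tested genes covered), and libraries left out. The test scripts were checked on simulated counts. Correlations used exact two-sided permutation within groups (14400 orders).

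All members are named. Of each list, genes past the threshold are named (where over 4 passed, the 4 with the largest change among those with a mean of at least 50 counts), and of a list without a call the 2 most abundant, marker lists excepted. Bcl6 is named as a partner of Cish, and per-library values of Egr1 were chosen after they were seen. Hsd3b5, C8b, Cyp17a1, Cd36, Pparg, Crp, Fga, Fgb and Ass1 were also named after their values were seen. Gene coordinates come from GENCODE M21 (GRCm38, which mm10 names). Each mouse is 1 replicate, and low counts, as of Cish, limit precision.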

Additional observations from a re-analysis of the deposited data

Results flagged for a closer look

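Chow replicate 2 and TM5614 replicate 2 had the lowest mean correlation with their own group, at 0.927 and 0.971. The measure was Pearson r of log2 CPM over the genes tested. The other Chow libraries had 0.965 to 0.970, and each of the other TM5614 libraries had 0.982. The gap to the nearest other library was 0.891 and 0.935 of the range of the group. In all, 22 groups of 5 values were examined for such gaps, of which chance would mark about 1.1, and no CPM value of a member was marked.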

How the results depend on the processing

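Of 170 recalculated member fold changes (10 members, 17 alternatives), 152 kept their direction and side of the threshold. The members called rose from 1 to 2, by the addition of Ghr, with limma-voom, with the GC content and length correction and without both replicate 2 libraries, and ranged from 0 to 2 with single libraries left out. Genes called over the whole table numbered 499, but 900 with DESeq2, 1386 with limma-voom, 1230 without both replicate 2 libraries, and 235 to 1031 with single libraries left out. List genes called numbered 23, but 36 without both replicate 2 libraries. Of the pairs of members, 2 had an adjusted p under 0.05, those of Ghr with Igf1 and Cish with Bcl6, against 1 after the GC content and length correction and 0 without both libraries. The sign turned for Jak2 with limma-voom (-0.0049), without both libraries (-0.045) and without Chow replicate 2 (-0.044, against at most 0.22 without any other library), for Socs3 with limma-voom (-0.18), without both libraries (-0.30) and without single libraries (-0.15 to 0.32), and for the correlation of Stat5a and Stat5b without both libraries (-0.12). The cause was not tested. With a replicate block 555 genes and 1 member were called, Bcl6 passed (-0.97, adjusted p = 0.0430), Acot3 did not (adjusted p = 0.0543), and Cish came to -0.89 (SE 0.23, adjusted p = 0.0626). Deviations of same-numbered mice correlated at 0.03 to 0.32, over 0.1 in 3 of 5 numbers, and 3 of 10 libraries correlated best with their own number. Pairing was not taken as shown, since it was to hold in every pair.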
